A study of Homo sapiens with 22 samples.

Results

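The SHEP21N arrays compare neuroblastoma cells with and without overexpression of MYCN, each in hypoxia and in normoxia. They are 4 of the 22 arrays of the series and were picked by their labels. The comparison itself was chosen with earlier results of these data known. The other 18 arrays hold 9 other neuroblastoma cell lines under the same oxygen conditions. The samples with MYCN overexpression, here termed MYCN-on, were grown without tetracycline in 1% O2 (hypoxia) or 20% O2 (normoxia). The samples without overexpression, here termed MYCN-off, were grown in the same oxygen conditions with 50 ng/mL tetracycline, so the drug and the MYCN state cannot be told apart. There was 1 array for each state and oxygen condition. SHEP21N cells carry a MYCN transgene that tetracycline shuts off, in a substrate-adherent neuroblastoma line with little MYCN of its own. They are 1 clone of 1 line, so the values describe that clone. Of 54675 probesets, 34852 had a signal of at least 100 on at least 1 of the 4 arrays and are called expressed. They represent 15073 of 19775 genes, each gene being read from its brightest probeset that names 1 gene. The limit is arbitrary for dim genes. AFAP1L2 reached exactly 100 and CCR2 reached 99.7, and 568 genes had their highest signal between 100 and 110, against 620 genes between 90 and 100.

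MYCN encodes a transcription factor of the MYC family that pairs with MAX and binds E-box sequences such as CACGTG. In neuroblastoma its amplification marks aggressive tumors. MYC proteins are known to raise genes for ribosome production, nucleotide and polyamine synthesis and cell division, and to lower genes for matrix, adhesion and differentiation.

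MYCN itself was high on 1 of the 4 arrays. At the brightest of its 10 probesets the signal was 830.2 on the hypoxic MYCN-on array, against 25.3 on the hypoxic MYCN-off array. In normoxia it was 13.7 on the array labelled MYCN-on, against 28.7 on the MYCN-off array. The hypoxic pair therefore followed its labels and the normoxic pair did not. The log2 difference (MYCN-on minus MYCN-off) was 5.07 ± 0.77 (SE) in the hypoxic pair, with an adjusted p of 0.0345. In the normoxic pair it was -1.28, with an adjusted p of 0.516. The difference between the pairs, 6.36 ± 1.09, had an adjusted p of 0.0253. Because each state has 1 array per condition, these errors come from the spread of the 9 other lines around their own means, and the SHEP21N arrays were assumed to vary alike. The lowest signal was 3.3 on each of the 4 SHEP21N arrays, with 457 to 877 probesets at it, and between 0.0921 and 0.803 on the other 18 arrays. Whether the 4 arrays were processed apart is not given in the sources used here, and this bears on the borrowed spread and on dim genes.

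The other 9 MYCN probesets were dimmer and went both ways, and 5 of the 10 were lower on the hypoxic MYCN-on array than on the hypoxic MYCN-off array. With all 10 averaged, the mean MYCN difference over both pairs was -0.17 (adjusted p = 0.923). A probeset that may also bind other transcripts gave 67.3 on the hypoxic MYCN-on array, against 16.3 on the hypoxic MYCN-off array. It gave 7.3 on the normoxic array labelled MYCN-on, against 16.3 on the normoxic MYCN-off array. Another gave 45 and 6.7 in the hypoxic pair and 15.7 and 5.7 in the normoxic pair, MYCN-on first in each. Among the probesets that ran the other way, one gave 8.7 and 51.3 in hypoxia and 17.7 and 49.0 in normoxia, and one gave 13.0 and 48.7, then 12 and 36.7, in the same order. A further probeset was highest on the normoxic MYCN-off array, at 186.6, against 46.7 on the normoxic array labelled MYCN-on. One probeset stayed between 6 and 19 on all 4 arrays, with a hypoxic log2 difference of -1.04 (limma adjusted p = 0.772). On the other 18 arrays of the series the same probeset read as little as 5.43 (GI-ME-N) and as much as 67600 (SK-N-BE2(C)), and the probeset that was brightest in SHEP21N reached 5550 in that line.

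The normoxic array labelled MYCN-on also stood apart in its control probesets. Its ratio of 3' to 5' signal was 67.3 for GAPDH and 94.0 for ACTB. The hypoxic MYCN-on array had ratios of 1.11 and 2.85. The MYCN-off arrays had 1.14 and 2.70 in hypoxia and 1.30 and 5.05 in normoxia, for GAPDH first in each. On the other 18 arrays these ratios were at most 1.40 for GAPDH and 2.54 for ACTB. A high ratio means that the 5' part of a transcript gave little signal. The 5' GAPDH control read 698.2 on the normoxic array labelled MYCN-on, against 47109.8 on the normoxic MYCN-off array. Across expressed genes that array correlated with the other 3 at 0.881 to 0.888, and the other 3 correlated with each other at 0.92 to 0.931. Whether the ratio or the label lies behind any normoxic value was not tested, and the hypoxic pair is given first throughout since it does not use that array.

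ODC1, the rate-limiting enzyme of polyamine synthesis and a well-known MYC target, had nearly the same levels in both oxygen conditions. Its signal was 27477.8 on the hypoxic MYCN-on array, against 13633.3 on the hypoxic MYCN-off array. In normoxia it was 27281.2 on the array labelled MYCN-on, against 13825.3 on the MYCN-off array. Both MYCN-on arrays lay above both MYCN-off arrays, with log2 differences of 1.05 in hypoxia and 0.76 in normoxia. The mean, 0.91 ± 0.27, did not pass the test (adjusted p = 0.158). With quantile normalization ODC1 passed, at 1.14 with an adjusted p of 0.0408, and with signals under 50 set to 50 its adjusted p was 0.0252 at a mean of 0.91. NCL, a nucleolar protein of ribosome production, gave 19556.1 and 15689.0 in hypoxia and 15040.4 and 17985.4 in normoxia, MYCN-on first in each. Its groups overlapped, and the log2 differences were 0.35 and -0.48.

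**Figure D1:**
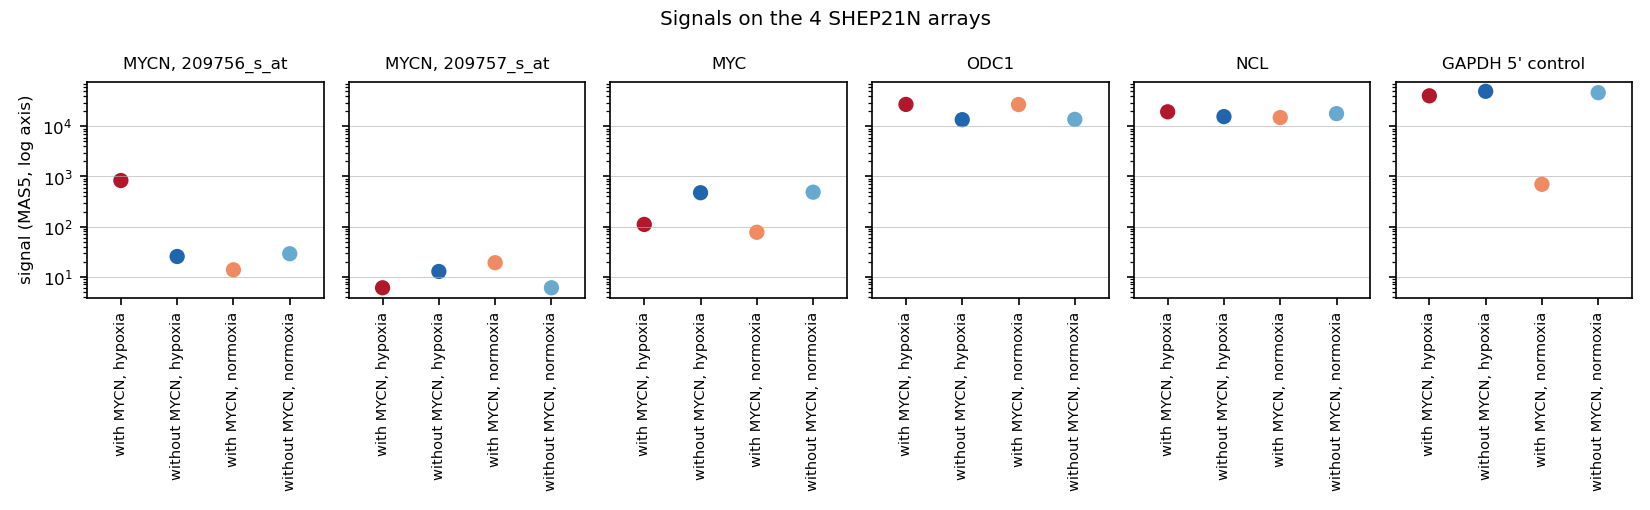
Signals (log axis) on the 4 SHEP21N arrays for MYCN at 2 probesets, MYC, ODC1, NCL and the 5' control probeset of GAPDH, 1 point per array. MYCN reaches 830.2 only on the hypoxic MYCN-on array, MYC is lower on both MYCN-on arrays, and the 5' GAPDH control reads 698.2 on the normoxic array labelled MYCN-on.

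MYC, the sister gene of MYCN, fell in both pairs. Its signal was 110.3 on the hypoxic MYCN-on array, against 473.9 on the hypoxic MYCN-off array. It was 77.0 on the normoxic array labelled MYCN-on, against 486.3 on the normoxic MYCN-off array. The groups did not overlap, and the mean log2 difference was -2.47 ± 0.46 (adjusted p = 0.0321). In a fit on the mean of all probesets of each gene, the adjusted p of MYC was 0.0659. MYC has 1 probeset, so its difference was the same in that fit. MYC was thus low on the normoxic array labelled MYCN-on, where MYCN itself read 13.7.

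The other members of the MYC, MAX and MXD network varied less in hypoxia. MAX, the obligate partner, gave 7535.4 and 6229.5 in hypoxia and 11681.5 and 5224.0 in normoxia, MYCN-on first in each, and its mean difference of 0.63 had an adjusted p of 0.288. MGA, a repressor that also binds MAX, had signals of 385.9 and 284.3 in the hypoxic pair. It reached 3761.9 on the normoxic array labelled MYCN-on, against 535.6 on the normoxic MYCN-off array. Apart from MYCN and MYC, no member of this list differed at least 2-fold in the hypoxic pair. The median over the 15 expressed members was 0.25 in hypoxia and -0.13 in normoxia. The normoxic median was 0.08 with the signals as deposited and 0.02 with quantile normalization.

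Over all genes the hypoxic pair was nearly balanced. Of the expressed genes, 1129 (7.49%) were at least 2-fold higher on the hypoxic MYCN-on array and 1216 (8.07%) at least 2-fold lower, and the median log2 difference was 0.03. In the normoxic pair 1644 genes (10.9%) were at least 2-fold higher and 2204 (14.6%) at least 2-fold lower, with a median of -0.08. With the signals as deposited the normoxic split turned to 2225 higher and 1662 lower, since that scaling moved the normoxic median to 0.13. Among expressed probesets, 3460 (9.93%) were higher and 3593 (10.3%) lower in hypoxia, and 4823 (13.8%) were higher and 6493 (18.6%) lower in normoxia. Both pairs together held 985 higher (2.83%) and 889 lower probesets (2.55%).

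Most of these large differences were at dim genes. Among the 3688 genes with a highest signal of 100 to 200, 42.2% differed at least 2-fold in the hypoxic pair. Among the 1768 genes with a signal of 5000 or more, 1.47% did so in hypoxia and 14.8% in normoxia. The 2-fold counts of bright genes in the normoxic pair leaned to the lower side. Of the probesets with a signal of at least 500, 244 were higher and 297 lower in hypoxia, whereas 483 were higher and 2598 lower in normoxia.

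By limma, 16 genes passed an adjusted p of 0.05 in the hypoxic pair, 8 higher (0.0531%) and 8 lower (0.0531%). MYCN was the only one of them with a signal of at least 500. When all probesets of a gene were averaged, 0 genes passed in limma. An unadjusted p under 0.05 was then held by 1015 genes, against 770 of 15073 expressed genes without the averaging. Without the SHEP-2 line in the fit 31 genes passed. The lowest adjusted p was that of SYT1, a calcium sensor of synaptic vesicles, named here after its value was seen. It had a signal of 10.7 on the hypoxic MYCN-on array, against 310.0 on the hypoxic MYCN-off array (adjusted p = 0.00578). It had 315.3 on the normoxic array labelled MYCN-on, against 232.6 on the normoxic MYCN-off array, so that only the hypoxic MYCN-on array was low. In the normoxic pair 55 genes passed on the higher side and 339 on the lower side, or 107 and 288 with the signals as deposited.

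The MYC and MYCN target genes leaned to higher values in the hypoxic pair. Of 33 expressed targets, 30 lay above 0, with a median log2 difference of 0.36, beside 52.0% and 0.03 for all expressed genes. CDC25A, a phosphatase that drives entry into S phase, and ODC1 were at least 2-fold higher. These 2 of 33 stand beside 7.49% of all expressed genes. CDC25A gave 1469.8 on the hypoxic MYCN-on array, against 500.9 on the hypoxic MYCN-off array, and 1019.9 and 785.2 in normoxia in the same order. CCND2, a D-type cyclin, was the only target at least 2-fold lower, with signals of 35.7 and 149.0, beside 8.07% of all expressed genes. In the normoxic pair 51.5% of the targets lay above 0, beside 45.5% of all expressed genes, with a median of 0.11. That median was 0.32 with the signals as deposited and 0.39 with quantile normalization, so the gap between the pairs rests on the scaling. By limma 0 of the 33 passed an adjusted p of 0.05 in the hypoxic pair, and 5 had an unadjusted p under 0.05. Of all 15073 expressed genes, 770 had such an unadjusted p. PRMT1, an arginine methyltransferase, gave 22561.1 and 16614.5 in hypoxia and 3230.3 and 13972.9 in normoxia, MYCN-on first in each.

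Genes of ribosome production in the nucleolus showed the same lean, again within the 2-fold limit for most members. Of 39 expressed genes, 37 lay above 0 in the hypoxic pair, with a median of 0.40. In the normoxic pair 43.6% did so, with a median of -0.12, which became 0.10 with the signals as deposited. The 3 genes past 2-fold in hypoxia were RRP9, POLR1C and UTP15, a share close to the 7.49% of all expressed genes on the higher side. RRP9, a protein of the U3 processing complex, gave 2357.7 on the hypoxic MYCN-on array, against 945.5 on the hypoxic MYCN-off array. POLR1C, a shared subunit of RNA polymerases I and III, gave 5029.0 and 2055.4 in the same order. In normoxia POLR1C gave 4022.5 on the array labelled MYCN-on, against 2524.3 on the MYCN-off array, and its mean difference of 0.89 ± 0.30 did not pass (adjusted p = 0.218). WDR12 and GAR1 had mean differences of 0.77 and 0.71 with adjusted p values of 0.178 and 0.239.

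Since MYC proteins bind the E-box CACGTG, the letters were searched in the start regions of the genes. RefSeq windows of GRCh38.p14, 300 bases each, cover 250 bases before to 50 bases after a start. The motif reads the same on both strands. It stood in 7.26% of all 35116 windows, and in at least 1 window of 12% of the 12053 expressed genes that matched by symbol. It stood in 18 of 34 matched nucleolar genes (52.9%) and in 12 of 29 matched MYC and MYCN targets (41.4%). These shares describe the lists and not the differences on these arrays. Among the genes at least 2-fold higher in both pairs it stood in 9 of 219 (4.11%), and among those at least 2-fold lower in 11 of 200 (5.5%). With a signal of at least 500 these were 1 of 10 (10%) and 1 of 36 (2.78%). Of the genes called in both pairs together, as defined below, 1 of 13 higher and 0 of 17 lower genes held it. A match is only a run of letters and not a bound site. The windows of POLR1G (chr19:45406394-45406693, + strand), a subunit of RNA polymerase I, RRP9 (chr3:51941855-51942154, - strand) and MCM7 (chr7:100101348-100101647, - strand), a subunit of the replicative helicase, are shown as examples of genes with higher signals on the hypoxic MYCN-on array. Only windows that hold the motif were taken as examples. The motif is in capitals and begins 12, 5 and 25 bases before the start in that order.
POLR1G: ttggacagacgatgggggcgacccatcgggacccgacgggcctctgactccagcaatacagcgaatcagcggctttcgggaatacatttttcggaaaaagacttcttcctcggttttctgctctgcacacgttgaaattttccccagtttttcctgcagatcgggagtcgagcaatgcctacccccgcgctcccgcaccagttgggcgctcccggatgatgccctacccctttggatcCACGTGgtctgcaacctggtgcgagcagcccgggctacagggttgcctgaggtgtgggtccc
RRP9: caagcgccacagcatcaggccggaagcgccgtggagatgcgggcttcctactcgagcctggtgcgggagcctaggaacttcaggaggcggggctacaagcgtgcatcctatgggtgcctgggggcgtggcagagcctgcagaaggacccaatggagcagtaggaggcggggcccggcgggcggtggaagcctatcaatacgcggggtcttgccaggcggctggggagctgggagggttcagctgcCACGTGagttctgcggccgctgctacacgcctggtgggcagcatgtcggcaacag
MCM7: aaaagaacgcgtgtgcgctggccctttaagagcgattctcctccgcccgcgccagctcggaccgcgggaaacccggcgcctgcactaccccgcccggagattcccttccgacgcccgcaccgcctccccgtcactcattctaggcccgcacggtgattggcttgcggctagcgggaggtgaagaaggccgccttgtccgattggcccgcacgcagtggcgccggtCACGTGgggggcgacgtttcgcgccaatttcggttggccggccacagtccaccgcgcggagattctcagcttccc

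Cytosolic ribosomal proteins, the parts of the ribosome itself, did not share this lean. In each pair 2 of 51 expressed genes lay above 0, and the medians were -0.24 in hypoxia and -0.56 in normoxia. With quantile normalization the medians were -0.01 and -0.03, so the direction rests on the scaling. RPL8 gave 41239.0 on the hypoxic MYCN-on array, against 51588.4 on the hypoxic MYCN-off array. It gave 5724.9 on the normoxic array labelled MYCN-on, against 46462.2 on the normoxic MYCN-off array. RPL18 had 45741.1 and 58203.2 in hypoxia and 6000.2 and 52018.5 in normoxia, MYCN-on first in each. Both genes were thus low on 1 array alone. RPL27A, at 2973.6 and 1412.5, and RPLP2, at 598.9 and 350.3, were on the higher side in normoxia.

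Translation factors were divided. The median of 26 expressed genes was -0.01 in the hypoxic pair and -0.44 in the normoxic pair. EIF5A, a factor modified with a polyamine, gave 5890.6 and 6581.8 in hypoxia and 206.0 and 2972.3 in normoxia, MYCN-on first in each. EIF3G and EIF4G1 had log2 differences of 0.15 and -0.01 in hypoxia, and of -2.19 and -2.21 in normoxia. Mitochondrial ribosomal proteins, by contrast, lay above 0 in 51 of 56 genes in hypoxia, with a median of 0.41 and no member past 2-fold. In normoxia their median was -0.15, which became 0.07 with the signals as deposited and 0.06 with quantile normalization.

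With signals divided by the array median, nucleotide synthesis had a median above 0.25 in both pairs, as did amino acid transport and serine synthesis. This rests on the scaling. With the signals as deposited, the MYC and MYCN targets (0.33 in hypoxia and 0.32 in normoxia) and the replication genes (0.42 and 0.39) also lay above 0.25. Of 26 expressed nucleotide genes, 80.8% lay above 0 in hypoxia and 84.6% in normoxia, with medians of 0.32 and 0.29. PFAS, an enzyme of purine synthesis, gave 6388.8 on the hypoxic MYCN-on array, against 2978.3 on the hypoxic MYCN-off array. It gave 5419.6 on the normoxic array labelled MYCN-on, against 2286.4 on the normoxic MYCN-off array. Its groups did not overlap, and the mean log2 difference of 1.08 ± 0.30 had an adjusted p of 0.137. SHMT1, a folate enzyme, was also past 2-fold in both pairs, but at signals of 98.0 and 42.7 in hypoxia and 126.3 and 26.3 in normoxia. CTPS1, which makes CTP, gave 3554.9 and 2047.1 in hypoxia and 4262.5 and 1485.5 in normoxia, MYCN-on first in each. UMPS, of pyrimidine synthesis, and the folate enzyme MTHFD2 had mean differences of 0.71 and 0.63. TK1, a thymidine kinase, went opposite ways, with log2 differences of 0.54 in hypoxia and -1.82 in normoxia.

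Among the amino acid genes, SLC7A5, a transporter of large neutral amino acids, gave 5608.9 on the hypoxic MYCN-on array, against 2395.0 on the hypoxic MYCN-off array. In normoxia it gave 2641.0 on the array labelled MYCN-on, against 1493.8 on the MYCN-off array. PSAT1, an enzyme of serine synthesis, gave 5775.2 and 3532.2 in hypoxia and 10252.7 and 4346.8 in normoxia in the same order. PYCR1, an enzyme of proline synthesis, gave 3454.9 and 1558.1 in hypoxia but 1941.4 and 2220.7 in normoxia. The medians of the 25 expressed genes were 0.38 and 0.36. The normoxic one became -0.08 when all probesets of a gene were averaged. In polyamine metabolism the medians over 20 genes were 0.40 in hypoxia and -0.18 in normoxia. The normoxic one was 0.04 with the signals as deposited and 0.07 with quantile normalization. ODC1 was the only member past 2-fold in the hypoxic pair. SRM, spermidine synthase, gave 9315.1 and 6295.5 in hypoxia but 1968.1 and 6604.5 in normoxia, MYCN-on first in each.

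Replication and mitosis genes were on the higher side in hypoxia. Of 42 S phase genes, 88.1% lay above 0, with a median of 0.45 in hypoxia and 0.17 in normoxia. The normoxic median was 0.39 with the signals as deposited and 0.42 with quantile normalization. CCNE1, the cyclin of the G1 to S transition, gave 1594.1 on the hypoxic MYCN-on array, against 913.5 on the hypoxic MYCN-off array. It gave 2246.0 and 726.2 in normoxia, and the mean difference of 1.13 ± 0.31 had an adjusted p of 0.133. MCM7 gave 11457.2 and 6782.1 in hypoxia and 6932.1 and 4939.7 in normoxia, MYCN-on first in each. RPA2, which coats single-stranded DNA, and the replication proteins GINS2 and MCM3 had mean differences of 0.71, 0.83 and 0.75. Of 38 mitosis genes, 89.5% lay above 0 in hypoxia, with a median of 0.32, and 42.1% in normoxia, with a median of -0.14. That normoxic median was 0.07 with the signals as deposited and 0.13 with quantile normalization, so its sign rests on the scaling. CCNB1, the main mitotic cyclin, gave 16656.5 and 10810.3 in hypoxia and 21179.3 and 10604.7 in normoxia in the same order. AURKB, a mitotic kinase, was past 2-fold in hypoxia, at 4892.0 and 2242.4, but gave 605.9 and 1852.4 in normoxia.

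Collagens and matrix proteins formed the list with the lowest median in the hypoxic pair. The median of 34 expressed genes was -0.58 in hypoxia and -0.22 in normoxia. With the signals as deposited the normoxic median was -0.01, and with quantile normalization it was 0.03. In hypoxia 3 genes lay above 0, 8 were at least 2-fold lower and 1 was at least 2-fold higher, beside backgrounds of 8.07% and 7.49%. COL6A2, a chain of collagen VI, was called lower in both pairs together. It gave 2481.7 on the hypoxic MYCN-on array, against 5463.0 on the hypoxic MYCN-off array. In normoxia it gave 30.3 on the array labelled MYCN-on, against 2550.7 on the MYCN-off array. TGFBI, a matrix protein induced by TGF-beta, gave 14147.2 and 32645.2 in hypoxia and 9044.2 and 22452.8 in normoxia, MYCN-on first in each. Its groups did not overlap, but its adjusted p was 0.504. TNC, LAMA4, COL5A2, FBN1, MMP3 and COL6A3 were the other genes past 2-fold on the lower side in hypoxia. TNC, an adhesion-modulating glycoprotein, gave 1680.1 on the hypoxic MYCN-on array, against 3832.8 on the hypoxic MYCN-off array. In normoxia it gave 2033.4 and 1994.7, without a difference of that size. TIMP3, an inhibitor of matrix proteases, was the gene on the higher side, at 172.6 and 60.0 in hypoxia.

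Integrins and other adhesion genes had medians of -0.36 in hypoxia and -0.28 in normoxia over 29 genes. The normoxic median was -0.07 with the signals as deposited and -0.01 with quantile normalization, so its size rests on the scaling. ITGB1, the common beta chain, gave 11129.6 on the hypoxic MYCN-on array, against 20044.4 on the hypoxic MYCN-off array. It gave 18177.0 on the normoxic array labelled MYCN-on, against 23466.7 on the normoxic MYCN-off array. The mean difference was -0.70 ± 0.22 (adjusted p = 0.189). ITGA3, an alpha chain of laminin receptors, was past 2-fold in both pairs, at 921.9 and 1985.1 in hypoxia and 477.6 and 1187.9 in normoxia. VCAM1, a receptor for leukocyte integrins, gave 462.3 and 1128.5 in hypoxia and 1022.9 and 1103.2 in normoxia, so that the hypoxic MYCN-on array alone was low. L1CAM, a neural adhesion molecule, was on the higher side in both pairs at low signals, 89.3 and 16.7 in hypoxia and 111.0 and 28.3 in normoxia. TLN1, which links integrins to actin, gave 1329.8 and 1740.8 in hypoxia but 99.3 and 1155.9 in normoxia.

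Growth-restraint genes, among them the NDRG family named after its repression by MYCN, had a median of -0.50 over 28 genes in hypoxia and -0.10 in normoxia. The normoxic median was 0.12 with the signals as deposited. In hypoxia 6 genes were at least 2-fold lower and 0 at least 2-fold higher, beside 8.07% and 7.49% of all expressed genes. DKK3, a secreted protein of the Dickkopf family, gave 967.5 on the hypoxic MYCN-on array, against 3014.3 on the hypoxic MYCN-off array. In normoxia it gave 1191.2 and 2020.1, and the mean difference of -1.29 ± 0.31 had an adjusted p of 0.0867. DKK1, a secreted Wnt inhibitor, gave 1261.2 and 3241.9 in hypoxia and 2362.0 and 3003.0 in normoxia, MYCN-on first in each. NDRG4 was past 2-fold in both pairs, at 263.0 and 701.9 in hypoxia and 226.3 and 630.3 in normoxia. NDRG1, also a hypoxia-induced gene, differed little between the MYCN states. Its signals were 2038.7 and 2246.0 in hypoxia and 523.9 and 469.3 in normoxia, MYCN-on first in each.

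**Figure D2:**
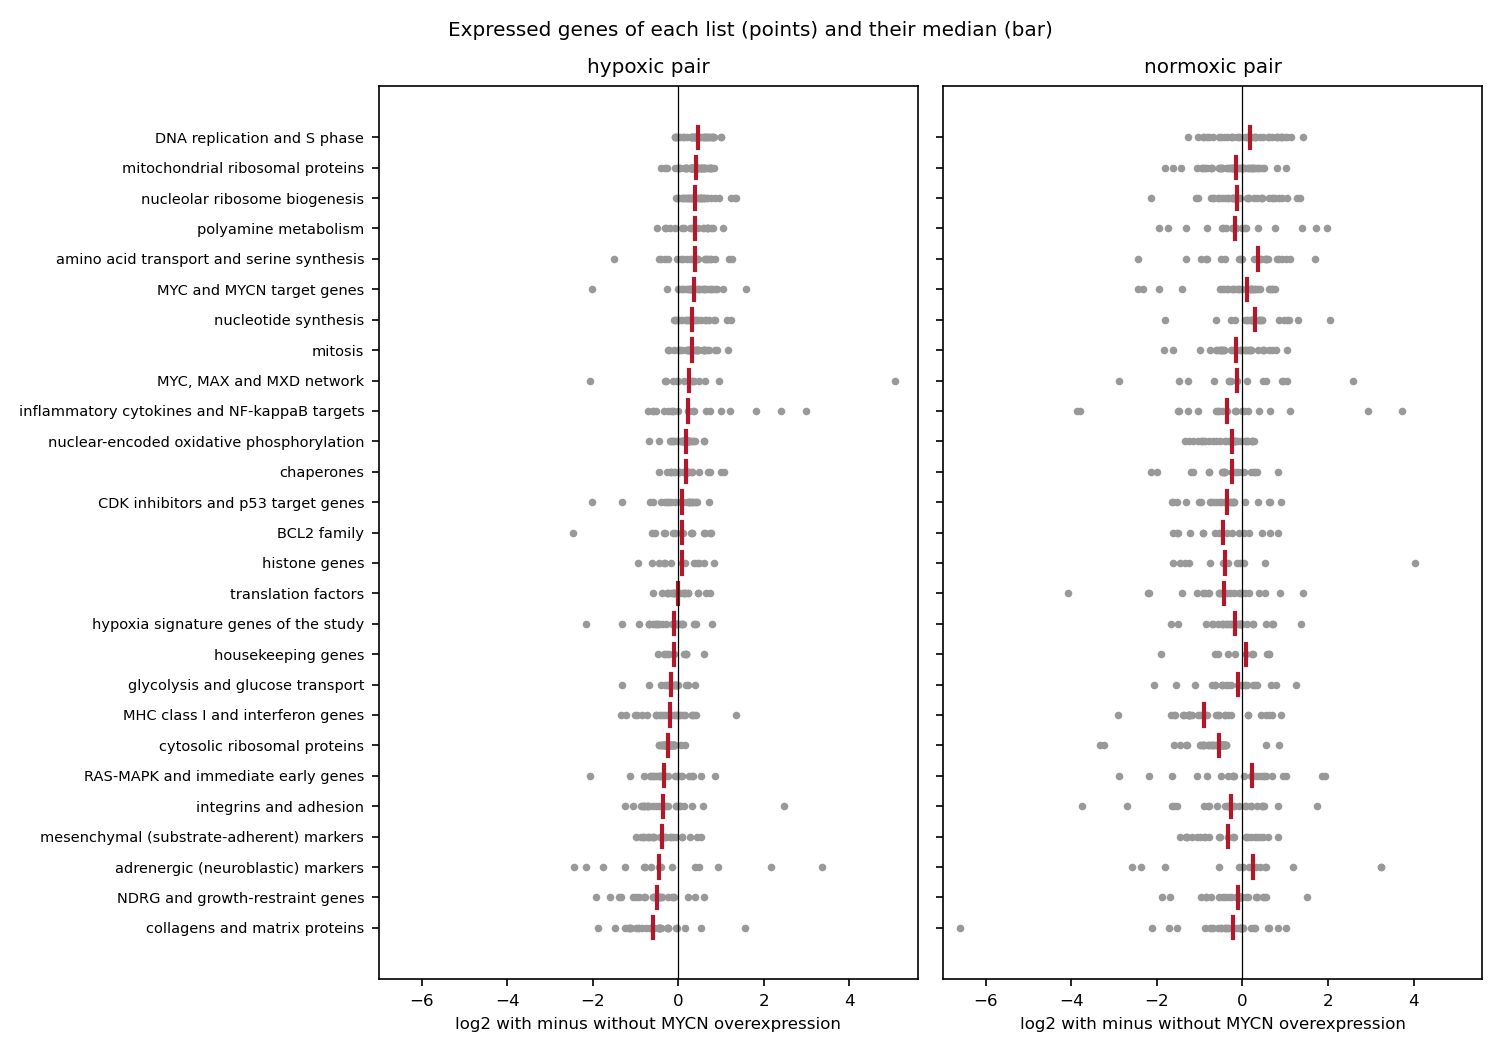
Log2 differences (MYCN-on minus MYCN-off) of the expressed genes of each of 27 lists in the hypoxic pair (left) and the normoxic pair (right), with points for genes and bars for medians. In hypoxia the medians run from 0.45 for replication genes to -0.58 for matrix genes, and in normoxia the spread within lists is wider.

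The cell type markers were those of a substrate-adherent line. All 25 measured mesenchymal markers were expressed, and their summed signal was 165000 and 230000 in hypoxia and 170000 and 253000 in normoxia, MYCN-on first in each. Their medians were -0.38 and -0.35, and the normoxic median was -0.13 with the signals as deposited and -0.01 with quantile normalization. VIM gave 27588.1 and 35579.1 in hypoxia and 20292.4 and 30019.9 in normoxia. SNAI2, a transcription factor of mesenchymal cells, gave 1879.4 and 3408.6, then 2479.7 and 5350.3, in the same order. By limma 0 of these markers passed an adjusted p of 0.05 in either pair, beside 0 in hypoxia and 4 in normoxia at an unadjusted p under 0.05. The unadjusted count over all expressed genes in hypoxia was 770 of 15073. It is not given here for normoxia, so the normoxic 4 has no share of all genes beside it. Of 23 measured adrenergic markers, 8 stayed under 100 on all 4 arrays, among them TH and DBH, the enzymes of catecholamine synthesis. TH did not exceed 15.7. NEFL, a neurofilament, alone reached 16637.5 to 28971.0. Single markers went both ways. SLC18A1, a vesicular amine transporter, was past 2-fold higher in both pairs, at 58.0 and 13.3 in hypoxia and 109.3 and 10.0 in normoxia, MYCN-on first in each (adjusted p = 0.34). GAP43, a growth cone protein, gave 109.7 and 11.0 in hypoxia and 95.7 and 81.3 in normoxia (adjusted p = 0.479). HAND2, a transcription factor of sympathetic neurons, was lower on both MYCN-on arrays, at 48.7 and 168.3 in hypoxia and 47.7 and 142.6 in normoxia, with an adjusted p of 0.272. The medians of the 15 expressed adrenergic markers were -0.44 in hypoxia and 0.25 in normoxia.

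The hypoxic and normoxic medians were -0.16 and -0.10 for glycolysis and glucose transport. They were 0.19 and -0.25 for nuclear-encoded oxidative phosphorylation and 0.17 and -0.24 for chaperones. With the signals as deposited the normoxic medians of glycolysis and oxidative phosphorylation were 0.12 and -0.03. With quantile normalization they were 0.26 and 0.03. CDK inhibitors and p53 target genes had 0.09 and -0.36, the BCL2 family 0.09 and -0.45, and histone genes 0.08 and -0.42. The RAS-MAPK and immediate early genes had -0.34 and 0.22, and the inflammatory cytokines 0.23 and -0.36. BMF, a pro-death BCL2 family member, gave 40.3 and 227.6 in hypoxia and 90.3 and 182.6 in normoxia, MYCN-on first in each. EGR1, an immediate early transcription factor, gave 1104.2 and 623.3 in hypoxia and 2803.3 and 661.9 in normoxia. IER3, a stress-induced gene, gave 567.9 and 1268.2 in hypoxia and 631.9 and 387.0 in normoxia. Of the 21 expressed cytokine and NF-kappaB genes, 5 were at least 2-fold higher and 0 lower in hypoxia, beside 7.49% and 8.07% of all expressed genes, the brightest on the hypoxic MYCN-on array being CXCL3, a chemokine, at 126.3 against 16.3. In normoxia 3 were higher and 6 lower, beside 10.9% and 14.6% of all expressed genes. IL1A, an inflammatory cytokine, was the one past 2-fold in both pairs, at 72.7 and 14 in hypoxia and 244.6 and 27.7 in normoxia.

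MHC class I and interferon genes, known to be low in MYCN-amplified tumors, had a median of -0.20 in hypoxia and -0.89 in normoxia. In hypoxia 3 of 32 were at least 2-fold lower and 1 at least 2-fold higher, close to the 8.07% and 7.49% of all expressed genes. In normoxia 14 were at least 2-fold lower and 0 higher, beside 14.6% and 10.9%. IRF7, which drives interferon production, was past 2-fold in both pairs, at 55.0 and 141.6 in hypoxia and 36.7 and 235.3 in normoxia, MYCN-on first in each. HLA-E gave 2905.6 and 3547.2 in hypoxia and 1219.8 and 2538.7 in normoxia, MYCN-on first in each. HLA-B gave 4534.7 and 5284.7, then 2710.3 and 3103.3. B2M, the light chain of MHC class I, gave 22885.0 and 27340.8, then 28130.4 and 36151.5. By limma 0 members passed an adjusted p of 0.05 in either pair, and 0 in hypoxia and 4 in normoxia had an unadjusted p under 0.05. Over all expressed genes the unadjusted count in hypoxia was 770 of 15073. That count is not given here for normoxia, so the normoxic 4 has no share of all genes beside it. At the adjusted p, 55 higher and 339 lower genes passed in normoxia over all expressed genes. The housekeeping genes had medians of -0.10 and 0.08. GAPDH gave 38287.4 and 49037.7 in hypoxia and 34782.9 and 47096.8 in normoxia, and ACTB gave 48932.0 and 69747.1, then 19708.2 and 63917.6.

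Across both pairs, 304 genes (2.02%) were at least 2-fold higher and 277 (1.84%) at least 2-fold lower. Of the 8607 genes with a signal of at least 500, 13 were higher and 48 lower in both pairs, and 21 differed 2-fold in opposite directions. Genes of this class were named after their values were seen. The 13 higher ones were SPRR4, LINC02987, PDE4A, NAF1, PPARGC1B, ADM2, MID1IP1, CBX2, PFAS, PDE5A, POLR1G, DDX28 and EPOP. NAF1, an assembly factor of H/ACA ribonucleoproteins such as telomerase, gave 2652.7 and 978.5 in hypoxia and 3247.3 and 953.9 in normoxia, MYCN-on first in each. POLR1G gave 3085.6 and 1529.8, then 4368.4 and 1187.9. DDX28, a helicase of the mitochondrial ribosome, gave 1351.2 and 678.9, then 1660.5 and 637.9. CBX2, a polycomb protein, gave 2806.6 and 1276.5, then 2685.0 and 926.6. MID1IP1, a regulator of lipid synthesis, gave 2209.7 and 1003.9, then 3424.2 and 995.9, and had an adjusted p of 0.0568. PPARGC1B, a coactivator of mitochondrial genes, gave 659.2 and 257.0, then 1132.9 and 235.3. In each of these genes both MYCN-on arrays lay above both MYCN-off arrays, but none passed the adjusted p. The order within each oxygen condition was fixed by the choice of genes at least 2-fold higher in both pairs.

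Of the 48 lower genes, 4 stand on the gene lists, namely COL6A2 and TGFBI (matrix), ITGA3 (adhesion) and NDRG4 (growth restraint). SERPINB7, a protease inhibitor, gave 51.0 on the hypoxic MYCN-on array, against 549.3 on the hypoxic MYCN-off array. In normoxia it gave 36.3 on the array labelled MYCN-on, against 399.6 on the MYCN-off array. NRP1, a co-receptor for semaphorins and VEGF, gave 614.6 and 1890.8 in hypoxia and 634.9 and 1627.1 in normoxia, MYCN-on first in each. OXTR, the oxytocin receptor, gave 141.3 and 510.9, then 182.6 and 436.6. PDE1C, a phosphodiesterase, gave 1688.4 and 4920.7, then 1935.1 and 4479.4. CAVIN1, a caveolar coat protein, gave 4188.1 and 9668.4, then 1695.1 and 3354.2. PNRC1, a nuclear receptor coactivator, gave 2053.7 and 5992.6, then 988.2 and 3225.9. Both MYCN-on arrays lay beneath both MYCN-off arrays in each of these genes except CAVIN1, and none was called. The hypoxic MYCN-on signal of CAVIN1, 4188.1, exceeded its normoxic MYCN-off signal of 3354.2. Here too the choice of genes fixed the order within each oxygen condition.

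**Figure D3:**
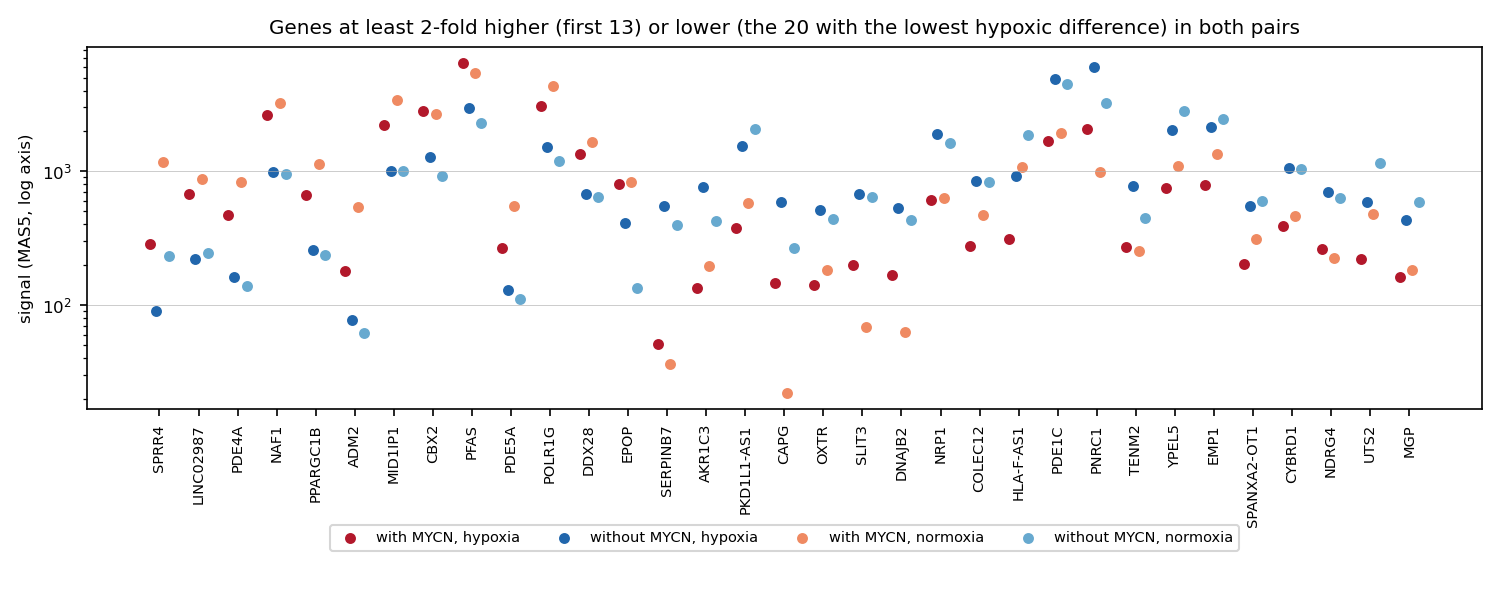
Signals (log axis) on the 4 SHEP21N arrays of genes with a signal of at least 500 that differed at least 2-fold the same way in both pairs, with all 13 higher genes at the left and the 20 lower genes with the lowest hypoxic differences at the right. In the higher genes the red and orange MYCN-on points lie above the blue MYCN-off points of the same oxygen condition. In the lower genes they lie beneath them. The choice of genes fixes this order.

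A gene was called in both pairs together when the averaged contrast had an adjusted p under 0.05 and each pair differed at least 2-fold the same way. This held for 18 higher genes (0.119%) and 22 lower genes (0.146%). Of the 18 higher genes, 15 had signals under 100 on both MYCN-off arrays and 1 had a signal of at least 500. Among the 22 lower genes 9 had signals under 100 on both MYCN-on arrays and 8 had a signal of at least 500. Genes under 100 on both arrays of 1 state passed the filter only through the state in which they were high. An additive fit, in which the pairs share 1 MYCN term, called 7 genes. It called 485 without the hypoxic MYCN-on array, 22 without the hypoxic MYCN-off array, 13 without the normoxic array labelled MYCN-on and 8 without the normoxic MYCN-off array. The lower genes held a pair of YPEL family members, small zinc-binding proteins linked to growth arrest. YPEL3 gave 19.0 on the hypoxic MYCN-on array, against 151.3 on the hypoxic MYCN-off array. It gave 29.3 on the normoxic array labelled MYCN-on, against 163.6 on the normoxic MYCN-off array, and its mean difference was -2.83 ± 0.29 (adjusted p = 0.00364). With its probesets averaged, the YPEL3 difference was -2.17 with an adjusted p of 0.354. YPEL5 gave 747.6 and 2048.4 in hypoxia and 1086.5 and 2815.6 in normoxia, with an adjusted p of 0.019.

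Other lower genes had roles of several kinds. TENM3, a teneurin of neural cell contacts, gave 1434.8 and 3213.3 in hypoxia and 494.3 and 1840.4 in normoxia, MYCN-on first in each (adjusted p = 0.0108). TLN2, a talin, gave 749.2 and 1659.1, then 543.6 and 1139.2 (adjusted p = 0.0285). CAP2, an actin regulator, gave 1144.5 and 2638.3, then 565.9 and 2017.7 (adjusted p = 0.0297). SLIT3, a guidance ligand, gave 199.6 and 679.6, then 68.7 and 639.9 (adjusted p = 0.0486). ITGB8, an integrin beta chain, gave 9.0 and 60.7, then 40 and 101.3 (adjusted p = 0.0363). The ITGB8 call was lost with its 5 probesets averaged (-0.27, adjusted p = 0.943), with the signals as deposited (adjusted p = 0.0575) and with signals under 50 set to 50 (adjusted p = 0.322). These genes were lower on the MYCN-on array within each oxygen condition, which the definition of a called gene requires. Among the called genes the largest fall in hypoxia was that of the non-coding gene AFDN-DT, with 5.0 and 122.3 in hypoxia and 95.3 and 168.0 in normoxia. RAB42, a small GTPase, had 27.3 and 244.0, then 18.7 and 139.6, and CHRNA9, a nicotinic receptor subunit, had 10.3 and 103.3, then 23.3 and 104.0. Lower signals were also seen for the exocyst subunit EXOC6B, at 74.3 and 322.0, then 124.0 and 311.0, and with its probesets averaged the difference was -1.01 with an adjusted p of 0.589. The call of COL6A2 was also lost with its 2 probesets averaged (-2.47, adjusted p = 0.0731). CHRNA9, RAB42, MTA2 and ARID3B have 1 probeset each, so their differences did not change in that fit. Their calls were lost there only because the adjusted p values rose, to 0.0715, 0.0542, 0.0835 and 0.0659.

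Among the genes called in both pairs together, PPEF1, LOC100506472, MTA2, LRP5L and EAF2 had the largest rises in the hypoxic pair. PPEF1, a phosphatase with calcium-binding motifs, gave 139.6 on the hypoxic MYCN-on array, against 6.3 on the hypoxic MYCN-off array. It gave 134.3 on the normoxic array labelled MYCN-on, against 42.7 on the normoxic MYCN-off array. MTA2, a subunit of the NuRD remodelling complex, gave 187.0 and 15.3 in hypoxia and 178.0 and 7.7 in normoxia. ADRA2C, an adrenergic receptor, gave 92.7 and 12.7, then 161.6 and 5.3, and had the lowest adjusted p of the 12 largest rises, 0.00238. ADRA2C reached the limit of 100 only on the normoxic array labelled MYCN-on, so its p is not independent of that filter. ARID3B, a DNA-binding protein, gave 233.6 and 32.7, then 158.6 and 42.3. EAF2 gave 179.3 and 21, then 185.0 and 54.0, but its mean difference was -0.13 when all of its probesets were averaged. These signals lie near the limit of 100, where 42.2% of genes differed 2-fold. With signals under 50 set to 50, the calls of LOC100506472, MTA2 and LRP5L were lost (limma adjusted p of 0.547, 0.0607 and 0.254). PPEF1 and EAF2 kept theirs at 0.0493 and 0.0182. With its 2 probesets averaged, LOC100506472 had a mean difference of 0.96 (adjusted p = 0.689). SPRR4 was the called higher gene with a signal of at least 500, with 285.6 and 89.7 in hypoxia and 1177.2 and 230.6 in normoxia.

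**Figure D4:**
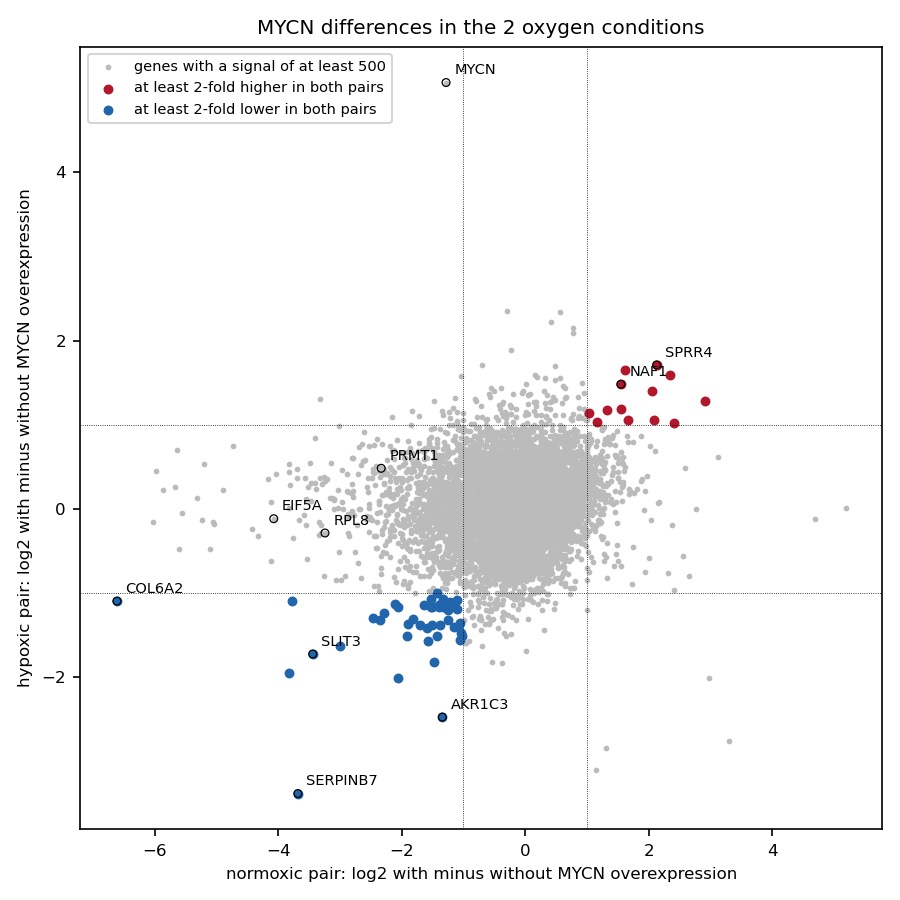
Log2 differences (MYCN-on minus MYCN-off) of the 8607 genes with a signal of at least 500 in the normoxic pair (horizontal) and the hypoxic pair (vertical), with dotted lines at 2-fold. Red and blue points are the 13 higher and 48 lower genes of both pairs, circled genes are named, and the cloud stretches to the left, where 1150 genes were at least 2-fold lower in normoxia.

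The same 4 arrays give the response to hypoxia in each MYCN state. The MYCN-on response uses the normoxic array labelled MYCN-on, with its high 3' to 5' control ratios and its MYCN signal of 13.7. The part of that array in the values below was not tested. With MYCN-on, 2163 genes (14.4%) were at least 2-fold higher in hypoxia than in normoxia and 1651 (11.0%) at least 2-fold lower. With MYCN-off, 1148 (7.62%) were higher and 1707 (11.3%) lower. The hypoxia signature genes of the study were chosen by its authors on arrays that include these, so that their direction is not independent evidence. Their median log2 response over 31 genes was 0.82 with MYCN-on and 0.83 with MYCN-off, beside -0.03 and -0.02 for all expressed genes. At least 2-fold higher in hypoxia were 10 of them with MYCN-on and 13 with MYCN-off.

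Several signature genes responded almost equally in both states. PDK1, a kinase that restrains pyruvate oxidation, gave 4107.1 in hypoxia and 1765.8 in normoxia with MYCN-on, and 4512.4 and 1628.1 with MYCN-off. The log2 responses were 1.44 and 1.43. NDRG1 had responses of 2.18 and 2.22, AK4 of 1.08 and 1.06, and ANKRD37 of 2.10 and 1.97, MYCN-on first in each. VEGFA, the main angiogenic factor, had 0.42 with MYCN-on and 1.71 with MYCN-off. Its signals were 2035.7 in hypoxia and 1767.4 in normoxia with MYCN-on, against 1973.7 and 587.3 with MYCN-off. The states thus parted on the normoxic arrays, where the array labelled MYCN-on has the high 3' to 5' control ratios. ALDOC, a glycolytic enzyme, had responses of 2.16 and 2.77. Of the 31 signature genes, 0 differed in response between the states at an adjusted p under 0.05 by limma, beside 136 of all expressed genes. At an unadjusted p under 0.05 there were 0 of the 31, and that count is not given here for all expressed genes. The error in this test comes from the spread of the other cell lines, which includes differences between those lines in their hypoxia response. The test also uses the normoxic array labelled MYCN-on. For these reasons the 0 of 31 cannot show whether the states responded alike.

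**Figure D5:**
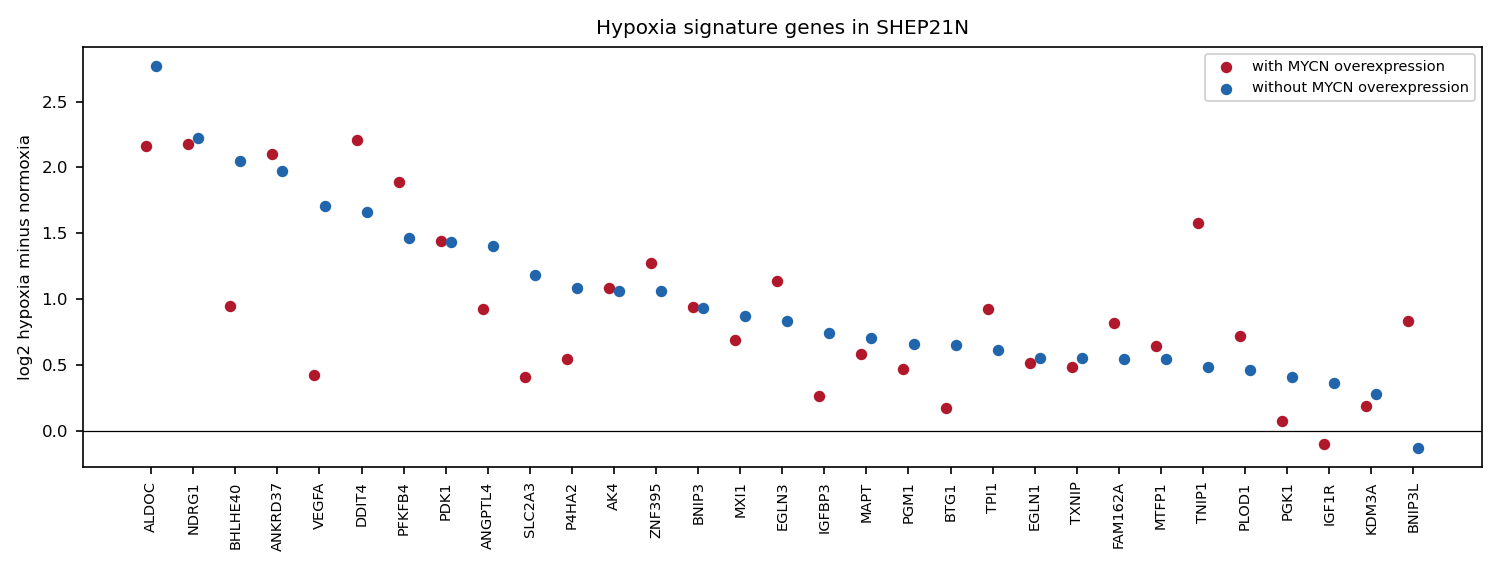
Log2 response to hypoxia (hypoxia minus normoxia) of the 31 hypoxia signature genes with MYCN-on (red, left of each gene) and MYCN-off (blue), in order of the MYCN-off response. NDRG1, PDK1, AK4 and ANKRD37 have nearly equal points, and VEGFA has 0.42 with MYCN-on against 1.71 with MYCN-off. The MYCN-on response uses the normoxic array with high 3' to 5' control ratios.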

How the data were processed

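Each sample was hybridised to 1 Affymetrix HG-U133 Plus 2.0 array. The authors quantified the arrays with MAS5 and scaled each to a mean of 500, and the deposited values are these signal intensities on a linear scale. The MAS5 version was not given in the sources used here. Signals were divided by the array median and log2-transformed. In limma 3.58.1 (R 4.3.3) each SHEP21N array had its own mean and the 9 other lines had line and oxygen terms, leaving 8 residual degrees of freedom. The contrasts were MYCN-on minus MYCN-off in hypoxia, in normoxia, their mean and their difference, with Benjamini-Hochberg adjustment over 54675 probesets. Precision is limited by 1 array per condition. GEO's platform annotation gave 41091 probesets 1 gene, 1801 several and 11783 none. Of 868 gene list entries, 789 were measured. The lists and the comparison were chosen with earlier results of these data known. The rule named MYCN, ODC1, NCL, GAPDH and ACTB, the 12 largest called rises and falls, and 4 members per list with the smallest p. Other list members were named after their values were seen, and 1 called gene is not reported here. The fit was tested on simulated data. Alternatives covered scaling, a floor, filters, thresholds, probeset choice, arrays left out and the model.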

Additional observations from a re-analysis of the deposited data

Results flagged for a closer look

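For 8 named genes the MYCN difference itself differed between the hypoxic and the normoxic pair, by limma's contrast of the pairs (hypoxic pair minus normoxic pair, log2, with SE). MYCN differed by 6.36 ± 1.09 (adjusted p = 0.0253), at a probeset whose choice used its hypoxic MYCN-on signal. COL6A2, a collagen VI chain, differed by 5.51 ± 0.92 (adjusted p = 0.0237), and its signal was 30.3 on the normoxic array labelled MYCN-on. EIF5A differed by 3.95 ± 0.60 (adjusted p = 0.0147) and EIF3G, also a translation factor, by 2.33 ± 0.41 (adjusted p = 0.0284). The ribosomal proteins RPL18 and RPL8 differed by 3.02 ± 0.43 (adjusted p = 0.0118) and 2.95 ± 0.39 (adjusted p = 0.00918). PRMT1 differed by 2.81 ± 0.45 (adjusted p = 0.0188). With all probesets of a gene averaged, the mean over both pairs went from -0.93 to 0.32 for PRMT1 (limma adjusted p = 0.959). For RPL18 it went from -1.82 to -0.54 (adjusted p = 0.766), and for EIF5A from -2.1 to -1.38 (adjusted p = 0.11). SLC6A2, the noradrenaline transporter, differed by -4.48 ± 0.60 (adjusted p = 0.00918). Its signals were 18.3 and 44.7 in hypoxia and 185.6 and 17.0 in normoxia, MYCN-on first in each. In all 8 the normoxic array labelled MYCN-on enters the contrast, and the part of its high 3' to 5' control ratios in these values was not tested.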

How the results depend on the processing

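Counts of called genes moved with several settings, and the causes were not tested. In the hypoxic pair (16 genes) there were 40 with quantile normalization, 415 with a floor of 50, 32 over expressed probesets only, 31 without SHEP-2, 1 at an adjusted p under 0.01 and 0 with the mean of all probesets (1015 at an unadjusted p under 0.05). In the normoxic pair (394) there were 2037 with the floor, 822 over expressed probesets, 1197 with an intensity trend and 125 at 0.01. For both pairs averaged (40) there were 171 with the floor, 63 over expressed probesets, 68 with the trend, 6 at 0.01, 7 with the additive fit, 14 with the mean of probesets and 0 with the 4 SHEP21N arrays only (337 unadjusted). In the limma fit on all arrays, 1761 of 15073 expressed genes had an unadjusted p under 0.05 for this average. Leaving out 1 SHEP21N array in the additive fit gave 8 to 485. A signal of at least 500, chosen after seeing the data, left 9. For the difference between the pairs (136) there were 1090 with the floor, 305 over expressed probesets, 513 with the trend, 27 at 0.01 and 59 with the mean of probesets.

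Probesets past 2-fold numbered 7053 in the hypoxic pair, 11316 in the normoxic pair and 1874 in both. In that order they numbered 13618, 17899 and 3752 at a signal of at least 50, and 1959, 5661 and 495 at 200. They numbered 807, 3608 and 150 at 100 on all 4 arrays, and 541, 3081 and 127 at 500, chosen after seeing the data. At 1.5-fold there were 13215, 18543 and 4511, and at 3-fold 3862, 6276 and 752. The floor left 857 in both pairs. With the signals as deposited the normoxic split was 6237 higher and 5154 lower, against 4823 and 6493.

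Of 124 named gene results, 106 kept direction and call with the floor, 100 with the mean of probesets, 120 with the signals as deposited and 122 with quantile normalization. EAF2 reversed to -0.13 and LOC389831 to 0.53 with the mean of probesets. Of 54 list medians, 8 changed sign with the signals as deposited and 11 with quantile normalization. Dim probesets, a single array per condition and a spread taken from other lines limit every value. The pairs are matched by oxygen condition, and the fit on the 4 SHEP21N arrays alone, given with its 0 calls, keeps that pairing. By replicate number, no paired analysis was possible because each group holds 1 array.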
